A study of Mus musculus with 8 samples.

Results

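Resting kidney tubular lines were compared with resting mammary gland lines of the mouse. The comparison takes the 4 resting arrays of the 8 in the series, chosen by their labels alone. They are mProx (proximal renal tubular cells) and MCT (renal tubular cells) on the kidney side, and EpH4 and NMuMG on the mammary side, with 1 array per line. EpH4 is labelled as resistant to EMT, the epithelial-mesenchymal transition in which cells give up their contacts and become motile, and which the series set out to induce. All 4 lines had spent 24 h in a serum-free medium with insulin and transferrin, each at 5 µg/mL, and then 24 h in the same medium without further addition. The other 4 arrays hold the same lines after 24 h with TGF-β1 and EGF, each at 3.0 ng/mL. They serve here as a second array of each line, and they also entered the normalization, the filter and the choice of probe sets. The labels used here give no strain, sex, passage or transgene, and nothing in them says how many cultures lie behind an array. The p-values therefore measure the spread between these lines, and what belongs to a tissue and what belongs to the particular lines cannot be told apart.

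Epithelia keep a record of where they arose. Kidney tubules come from intermediate mesoderm under the control of factors such as PAX8, and turn on kidney cadherin and segment-specific transporters, whereas the mammary gland buds from surface ectoderm and forms an inner luminal layer with keratins 8 and 18 and an outer basal layer with keratin 14. HOX transcription factors mark position along the body axis and are often kept in culture. Both epithelia are held together by cadherins, claudins and desmosomes, which EMT takes apart. Lines differ besides in how they divide, since E2F factors switch on the genes of DNA replication and p53 switches on brakes on the cell cycle.

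Levels are log2 of the array signal plus an offset, made comparable over the arrays by quantile normalization. Values under the filter level of 5.27 are called dim, and a difference that involves them is not exact. Levels of different genes are not compared, since each probe set binds with its own strength. Median signals of the 4 resting arrays lay between 41.8 and 59.6 on the deposited scale, and their trimmed means between 208.5 in NMuMG and 375.6 in EpH4. RNA came from whole cultures, so fewer cells with a transcript and less of it per cell cannot be told apart.

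The kidney lines were close to each other and the mammary lines were not. Levels of the 12640 tested genes correlated at 0.90 between mProx and MCT, with 1985 genes at least 2-fold apart. EpH4 and NMuMG correlated at 0.81, with 3758 genes at least 2-fold apart. The 4 pairs of a kidney with a mammary line lay at 0.80 to 0.83, with 2927 to 3406 such genes. Thus the 2 mammary lines stood as far apart as lines of different tissues, and a mean of the 2 often describes neither. These correlations run over genes, which are not independent replicates.

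No gene passed limma's test of kidney against mammary lines after Benjamini-Hochberg adjustment (0 of 12640, 0%), and the smallest adjusted p was 0.315. At an unadjusted p under 0.05 in limma stood 925 genes, 594 higher in the kidney lines and 331 higher in the mammary lines. Without normalization of the deposited values 3 genes passed limma's test in each direction, and with all 8 arrays and the line as a random block 4 passed higher in kidney and 2 higher in mammary lines. With 2 lines a tissue an exact permutation test of a single gene cannot go below p = 0.333. The genes are therefore described by whether the lines overlap. Of the tested genes 37% had no overlap, 2632 (20.8%) with both kidney lines above both mammary lines and 2039 (16.1%) the other way. Of all tested genes 4.49% had a gap of at least 2-fold. The gap, the distance from the lowest line of the higher tissue to the highest line of the lower one, reached that size for 386 genes higher in kidney (3.05%) and 182 higher in mammary lines (1.44%). These shares are the background for the counts below.

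The labels were first set against defining markers. Of 4 kidney tubule markers analysed, 3 were above the filter level in each kidney line, against 1 in EpH4 and 2 in NMuMG. Their summed level was 38.4 in mProx and 30.9 in MCT against 17.1 in EpH4 and 20.4 in NMuMG. Pax2, a tubule factor, was not analysed here, and Lhx1 was dim in all 4 lines. Of 9 mammary luminal markers analysed, 7 were above the filter level in each mammary line, against 5 in mProx and 6 in MCT, with summed levels of 71.5 in EpH4 and 68.2 in NMuMG against 53.9 and 57.2. Elf5, the factor of milk-producing alveolar cells, was dim in all 4 lines, and Esr1, the oestrogen receptor gene, lay between 5.36 and 5.88. The proximal tubule markers did not separate the tissues. Of 8 analysed, 7 were above the filter level in each kidney line, 6 in EpH4 and 8 in NMuMG. Their summed level was 62.7 in mProx and 48.9 in MCT against 43.5 in EpH4 and 50.5 in NMuMG. Each side thus had some but not all of the markers of its tissue.

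Cdh16, which encodes kidney-specific cadherin, had the largest gap among genes higher in the kidney lines. It was at 12.23 in mProx and 10.80 in MCT, and at 4.24 in EpH4 and 5.33 in NMuMG. The kidney mean was higher by 6.73 with an SE of 0.71 (106-fold, limma adjusted p = 0.315), and the lowest kidney array lay 5.47 above the highest mammary array. Pax8, a transcription factor of kidney and thyroid development, was at 10.90 and 9.66 in mProx and MCT and at 5.78 and 5.25 in EpH4 and NMuMG. It was higher in kidney lines by 4.76 with an SE of 0.61 (27.2-fold). Both genes separate the tissues, although NMuMG lay near the filter level for either.

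Among kidney lineage factors 35 were tested, of which 9 were higher in both kidney lines and 6 in both mammary lines. These counts were near the shares of all genes, 20.8% and 16.1%. A gap of at least 2-fold was found in 4 higher in kidney and 1 higher in mammary lines, against 3.05% and 1.44% of all genes. The median difference was 0.21 against 0.03 over all genes. Foxd1, a forkhead factor of the kidney stroma, was at 11.03 and 9.98 in mProx and MCT and at 6.90 and 8.17 in EpH4 and NMuMG. Eya1, a transcriptional cofactor of kidney progenitors, was at 9.61 and 10.85 against 8.49 and 5.80. These lineage genes did not form a block, because others ran the opposite way or marked 1 line. Gata3, needed in both the nephric duct and the mammary luminal layer, was dim in both kidney lines, at 4.07 and 4.53, with 8.37 in EpH4 and 5.54 in NMuMG. Osr1, an early factor of intermediate mesoderm, was above the filter level in EpH4 alone, at 8.72. Emx2, a homeobox factor of the urogenital tract, was at 10.13 in mProx and 6.61 in MCT, against 3.52 in EpH4 and 6.22 in NMuMG. The list's median difference was 0.70 without EpH4 and also 0.70 without MCT, 0.05 with each line as the mean of its 2 arrays, and -0.35 when the filter was raised to the 70th percentile of signal.

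Some proximal tubule genes marked mProx alone. In 3 of the 29 tested genes of this list mProx was at least 2-fold above each of the other lines. Aqp1, the water channel of the proximal tubule, was at 12.84 in mProx and between 5.07 and 5.87 in the other 3 lines. Enpep, the brush border peptidase that trims angiotensin II, was at 11.22 in mProx and at 5.47, 4.09 and 6.73 in MCT, EpH4 and NMuMG. MCT did not share these 2 genes, so neither separates the tissues beyond the spread of the kidney lines. Mme, another brush border peptidase gene, was at 10.09 in mProx, 8.14 in MCT and 8.21 in NMuMG, and dim in EpH4 at 3.59. Of the list's 29 tested members 10 were higher in both kidney lines and 5 in both mammary lines, against 20.8% and 16.1% of all genes. The median difference was 0.37. That median was 0.15 without EpH4, 0.11 with each line as the mean of its 2 arrays and 0.08 with no filter. The genes with gaps were of broader use. Dab2, an endocytic adaptor that works with megalin, was at 11.72 and 10.91 in mProx and MCT against 7.37 and 9.26, and Car2, carbonic anhydrase 2, at 8.07 and 9.24 against 5.13 and 6.76. Other genes of the reabsorbing tubule cell differed little between the lines. Lrp2, encoding megalin itself, lay between 5.96 and 6.57 in all 4 lines, the phosphate transporter gene Slc34a1 between 5.26 and 5.54, and Hnf4a between 5.29 and 6.23. From the distal nephron, Wnk4, a kinase that sets salt transport, was at 8.38 and 7.99 in the kidney lines and at 5.82 and 6.35 in EpH4 and NMuMG. It was 1 of 11 tested genes of the loop, distal tubule and collecting duct. Of the 11, 4 were higher in both kidney lines and 3 in both mammary lines, against 20.8% and 16.1% of all genes.

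**Figure D1:**
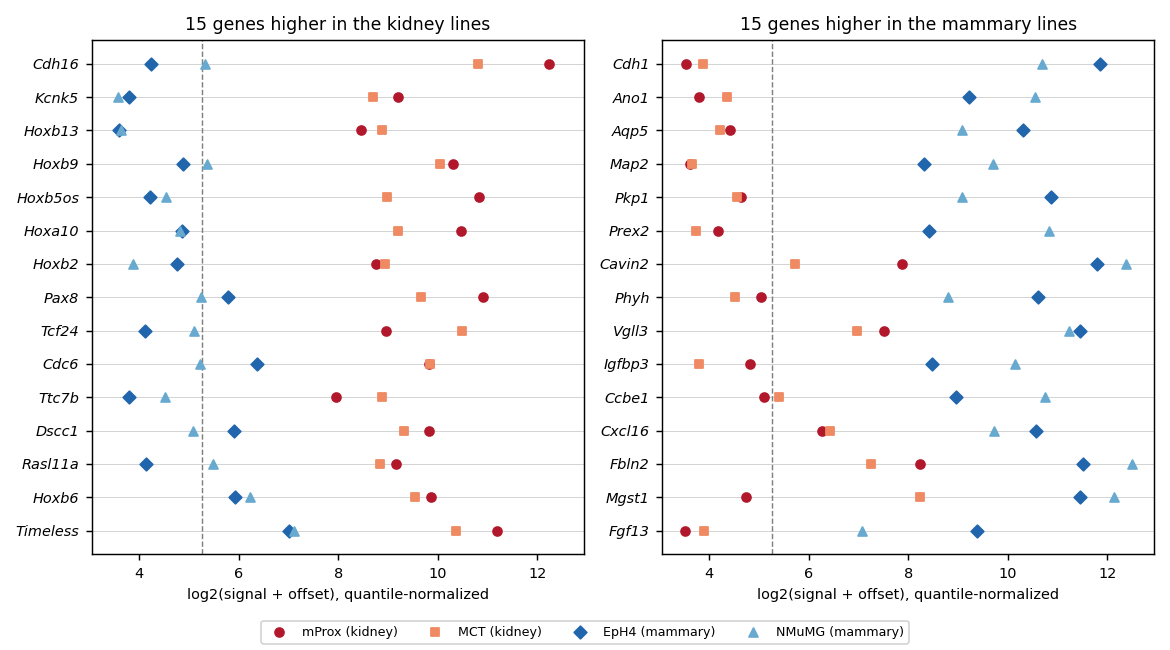
Log2 level (horizontal axis) of the 15 genes with the largest gap in each direction, 1 point per resting line, with the filter level as a dashed line. For Cdh16 the 2 kidney lines lie at 10.80 and 12.23 and the mammary lines at 4.24 and 5.33, and for Cdh1 the order is turned, with 3.53 and 3.87 against 10.69 and 11.84.

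The 15 genes with the largest gaps higher in kidney lines included 5 HOX genes with the HOX cluster transcript Hoxb5os, and 3 genes of DNA replication, Cdc6, Dscc1 and Timeless. These genes were selected by the gap, so its size describes them and supports nothing. Gaps ran from 3.26 to 5.47 and mean differences from 12.3-fold to 106-fold, with unadjusted limma p from 9.89e-05 to 0.00113. In 7 of the 15 both mammary lines were dim. Kcnk5, a pore-domain potassium channel of tubule cells, was at 9.20 in mProx and 8.70 in MCT against 3.79 in EpH4 and 3.58 in NMuMG. Tcf24, a helix-loop-helix factor gene, was at 8.97 and 10.48 against 4.11 and 5.10, and Ttc7b, a scaffold of a phosphatidylinositol 4-kinase complex, at 7.95 and 8.88 against 3.79 and 4.52. Rasl11a, a Ras-like GTPase gene, was at 9.16 and 8.83 against 4.14 and 5.49. The next gene in the order was Twist2, with a gap of 3.22 just below that of Timeless, 3.26. Of the 4 genes with other probe sets, all of those probe sets had the same direction.

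HOX genes were higher in both kidney lines through the tested genes of the Hoxb and Hoxc clusters and in few of the Hoxa and Hoxd clusters. Of 33 HOX genes on the array 23 passed the filter. A gene on in only 1 tissue passes it through that tissue, so the count leans to genes that differ. Of the 23, 17 had both kidney lines above both mammary lines and 0 had the reverse, against 20.8% and 16.1% of all genes, and 15 had a gap of at least 2-fold, against 3.05%. The median difference was 3.07, and 1.96 with an offset of 50. Over all 33, with no filter, 19 were higher in both kidney lines and 0 in both mammary lines, with a median of 1.61.

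The HOX genes with the largest gaps covered the trunk and the hind end of the body axis. Hoxb13, the most posterior gene of its cluster, was at 8.45 in mProx and 8.89 in MCT and dim at 3.60 in EpH4 and 3.64 in NMuMG. Hoxb9 was at 10.31 and 10.04 against 4.89 and 5.37, and Hoxa10, a gene of the lumbar region and the reproductive tract, at 10.46 and 9.20 against 4.87 and 4.82. Mean differences of these 3 genes were 33.1-fold, 33.1-fold and 31.7-fold. Anterior members were included as well. Hoxb2, which patterns the hindbrain in the embryo, was at 8.76 and 8.94 in the kidney lines against 4.76 and 3.88, and Hoxb6 at 9.87 and 9.54 against 5.93 and 6.23. Hoxb5os, a transcript from the opposite strand of the Hoxb cluster, followed with 10.82 and 8.98 against 4.22 and 4.54. Where its probes lie relative to the neighbouring HOX genes was not checked.

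The clusters differed in how far the pattern reached. All 7 tested genes of the Hoxb cluster and all 7 of the Hoxc cluster were higher in both kidney lines. The Hoxc genes ran from Hoxc4 at 7.84 and 7.48 against 5.43 and 3.73 to Hoxc13 at 8.45 and 7.31 against 4.14 and 4.76. In the Hoxa cluster Hoxa9 and Hoxa10 had a gap, whereas Hoxa3, Hoxa4, Hoxa5, Hoxa11 and Hoxa13 overlapped. Hoxa5, a regulator of thoracic patterning, was at 8.12 and 7.83 in the kidney lines and at 8.27 and 7.02 in EpH4 and NMuMG, so it was on in all 4. In the Hoxd cluster Hoxd8 had a gap, with 8.80 and 7.92 against 4.99 and 5.22. Hoxd9 was at 7.85 in mProx and dim in MCT, EpH4 and NMuMG, at 4.31, 5.15 and 4.45. The posterior genes Hoxd10, Hoxd11 and Hoxd12 were dim in all 4 lines. mProx was at least 2-fold above each of the other 3 lines in 8 of the 23 genes, and MCT in 0.

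**Figure D2:**
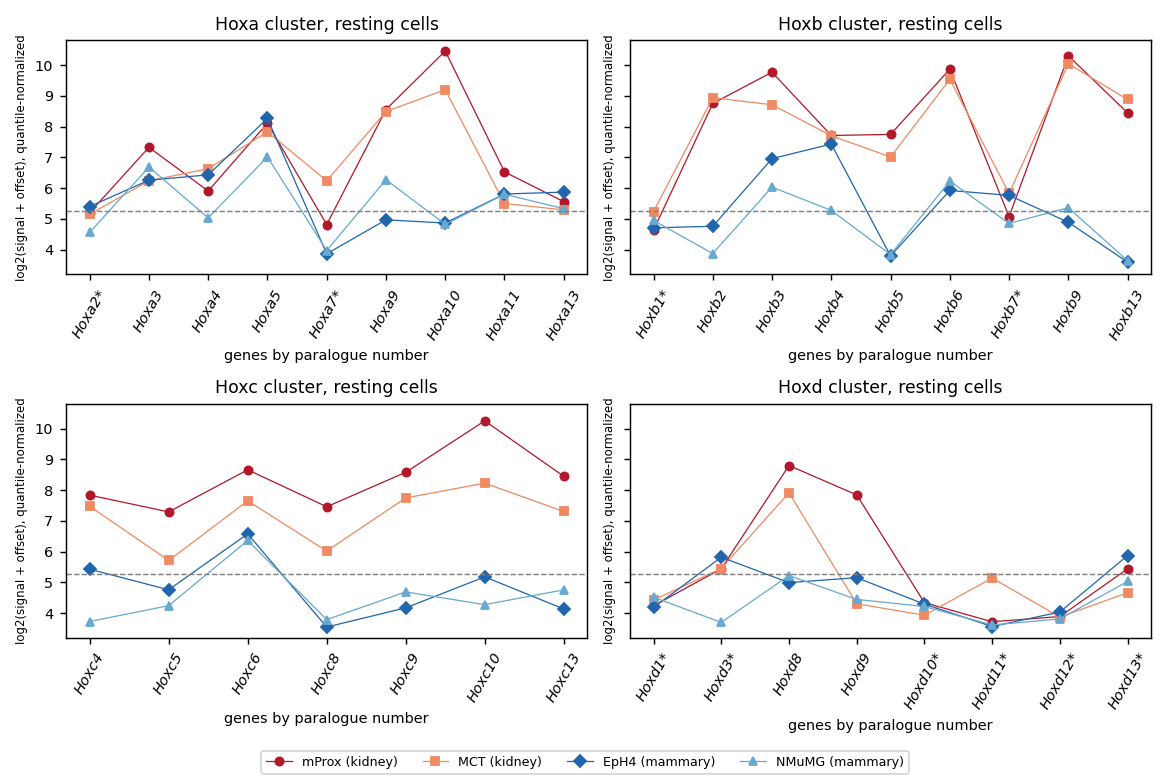
Log2 level (vertical axis) of each analysed HOX gene in 4 resting lines, ordered by paralogue number within the 4 clusters, with an asterisk on genes under the filter and the filter level as a dashed line. The kidney lines lie above the mammary lines through the Hoxc cluster and most of the Hoxb cluster, and the lines cross in much of the Hoxa and Hoxd clusters.

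Genes of DNA replication were higher in both kidney lines almost without exception. All 40 tested members of the E2F and S-phase list had a higher kidney mean, and 39 had both kidney lines above both mammary lines, against 20.8% of all genes. Of the 40, 27 had a gap of at least 2-fold, and the median difference was 2.22. The median level of the list was 10.8 in mProx, 10.6 in MCT, 9.20 in EpH4 and 7.85 in NMuMG. NMuMG was the lowest line, at least 2-fold under each of the other 3 in 23 of the 40. Without NMuMG the median difference was 1.69, and all 40 were higher in both kidney lines than in EpH4. For the 39 genes without overlap this was fixed in advance, since leaving out a line cannot make them overlap.

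The MCM proteins form the ring-shaped helicase that opens DNA at origins. Each of their genes listed here was above the mammary lines in both kidney lines. Mcm5 was at 11.33 in mProx and 10.94 in MCT, at 9.24 in EpH4 and at 6.24 in NMuMG. Mcm6 was at 12.04 and 11.69 against 9.97 and 9.13, and Mcm3 at 11.87 and 11.82 against 10.58 and 8.64. The smallest of these differences was in Mcm7, at 13.07 and 12.75 against 12.13 and 11.18, near the top of the scale, where a larger difference may not show. The promoters of these 4 genes are shown because each holds the letters TTTNGCGC, a core that E2F factors bind, on 1 strand or the other. Sequences are from RefSeq on the build GRCm38.p6, 5′ to 3′ on the gene's strand, with the matches in capitals. For Mcm5 and Mcm6 the 250 bases before the start of the gene are given, at chr8:75109259-75109508 on the plus strand and chr1:128359706-128359955 on the minus strand. For Mcm3 and Mcm7, where the match lies 38 and 16 bases past the start, only 30 bases around it are given, at chr1:20820263-20820292 and chr5:138171849-138171878, both on the minus strand.
Mcm5: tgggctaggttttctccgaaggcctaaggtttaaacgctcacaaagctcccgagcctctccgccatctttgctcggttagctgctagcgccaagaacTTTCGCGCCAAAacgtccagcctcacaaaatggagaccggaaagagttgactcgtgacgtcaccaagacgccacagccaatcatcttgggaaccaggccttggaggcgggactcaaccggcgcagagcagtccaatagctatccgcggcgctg
Mcm6: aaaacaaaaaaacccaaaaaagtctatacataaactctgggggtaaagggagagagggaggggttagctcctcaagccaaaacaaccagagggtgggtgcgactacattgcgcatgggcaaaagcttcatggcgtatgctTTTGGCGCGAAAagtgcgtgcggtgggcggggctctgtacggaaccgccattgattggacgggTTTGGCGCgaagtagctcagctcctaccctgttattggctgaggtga
Mcm3: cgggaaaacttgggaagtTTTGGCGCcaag
Mcm7: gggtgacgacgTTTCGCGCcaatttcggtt

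In Mcm5 the capitals hold 2 overlapping matches, 1 on each strand, 153 and 149 bases before the start. Mcm6 has such an overlapping pair 110 and 106 bases before the start and another match 47 bases before it. The table lists a second start site of Mcm7, whose window has 0 matches. Over windows of 300 bases, 250 before and 50 after the start, 13 of 44 promoters of the S-phase list held the letters (29.5%), against 1.38% of all 32851 promoters in the table. The 44 promoters belong to 34 of the 40 tested genes. The list was drawn up from E2F and S-phase genes, so a high share of these letters describes the list and not these arrays. The 11 promoters of 10 tested HOX genes held 0, too few windows to set against 1.38%. A match is a description of the letters and does not show that a factor bound there.

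The largest gaps of the list lay outside the helicase. Cdc6, which loads the MCM ring onto origins, was at 9.83 and 9.84 in mProx and MCT against 6.38 and 5.22 in EpH4 and NMuMG, a 16.4-fold mean difference. Tk1, the salvage enzyme for thymidine, was at 11 in mProx and 11.21 in MCT against 8.07 and 6.54. Both genes separated the tissues by a gap larger than the distance between the kidney lines. E2f8, a repressor of the E2F family that acts late in S phase, was at 10.03 and 10.06 against 7.31 and 6.01, and Pole, the leading-strand polymerase, at 10.63 and 9.69 against 7.27 and 6.19. Slbp, which binds histone mRNA in S phase, was at 12.15 and 11.79 against 9.66 and 9.63. Outside the list, Dscc1, part of the complex that loads the sliding clamp for cohesion, was at 9.83 and 9.33 against 5.92 and 5.07, and Timeless, which protects the replication fork, at 11.18 and 10.36 against 7.01 and 7.10.

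Of the cell cycle inhibitors in the same list, the neighbouring genes Cdkn2a and Cdkn2b were low in EpH4. Cdkn2a, which encodes p16 and p19ARF, was at 5.55 in EpH4, at 9.82 in NMuMG, at 10.88 in mProx and at 11.02 in MCT. Its neighbour Cdkn2b, which encodes p15, was the one member with overlap, at 9.02 and 9.20 in the kidney lines, 11.63 in NMuMG and 4.10 in EpH4. NMuMG was thus the highest of the 4 lines for Cdkn2b and EpH4 the lowest for both.

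Targets of p53 ran the other way. Of 26 tested members 16 had both mammary lines above both kidney lines, against 16.1% of all genes, and 1 had the reverse. A gap of at least 2-fold was found in 5, and the median difference was -1.08. Fas, a death receptor gene, was at 4.0 in mProx and 6.74 in MCT against 8.44 in EpH4 and 9.55 in NMuMG. Zmat3, an RNA-binding protein gene, was at 8.60 and 9.32 against 11.52 and 11.36, and Bbc3, which encodes the cell death protein PUMA, at 7.52 and 7.96 against 9.67 and 9.32. Btg2, an antiproliferative gene, was at 8.52 and 7.15 against 9.57 and 10.63, and Ptp4a3, a phosphatase gene, at 5.36 and 6.88 against 8.0 and 9.63. The best-known target, Cdkn1a, which encodes p21, was at 9.76 in mProx and 11.49 in MCT against 12.17 in EpH4 and 11.54 in NMuMG. Its gap of 0.05 was smaller than the distance between the lines of either tissue.

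For many p53 targets mProx was the lowest line. It was at least 2-fold under each of the other 3 lines in 9 of the 26 targets, and without mProx the median difference was -0.45. Sesn1, a stress sensor gene, was the 1 target higher in both kidney lines, at 10.71 and 9.32 against 7.79 and 8.65. Pmaip1, which encodes the cell death protein NOXA, was dim in EpH4 alone, at 3.64, against 9.21, 10.20 and 10.03 in mProx, MCT and NMuMG. On the stimulated arrays 7 targets were higher in both mammary lines, 2 in both kidney lines, and the median difference was -0.08. On the same arrays 38 of 40 S-phase genes were higher in both kidney lines, with a median of 2.14. The difference between the 2 states was not tested for the lists.

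**Figure D3:**
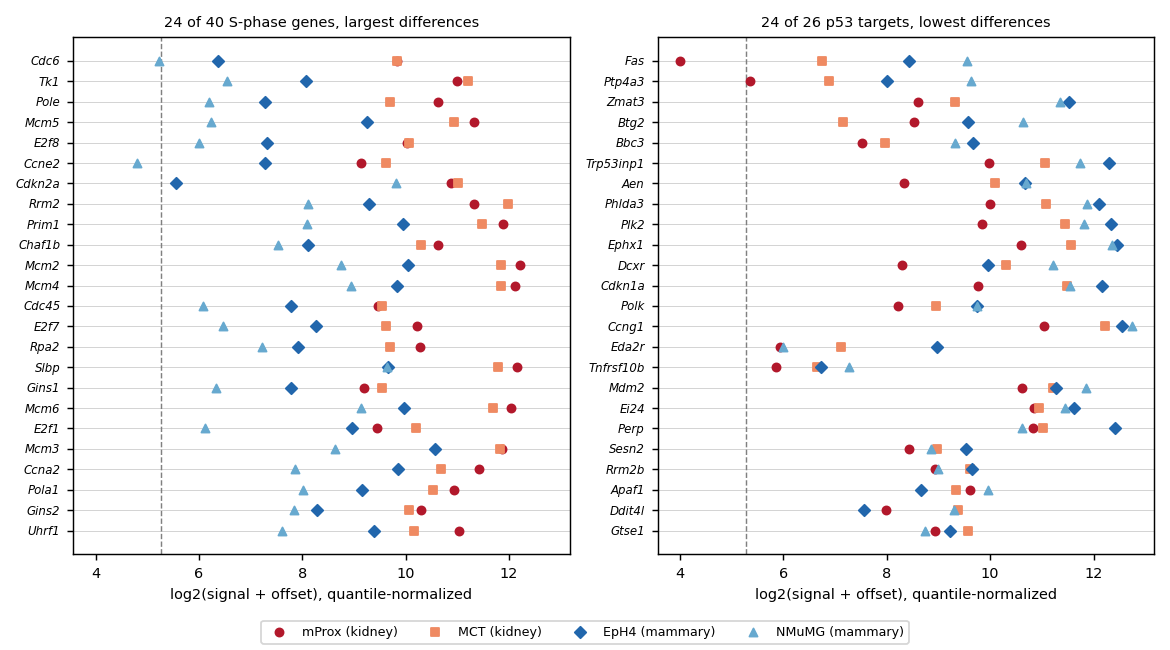
Log2 level (horizontal axis) in 4 resting lines of the 24 S-phase genes with the largest kidney minus mammary difference and of the 24 p53 targets with the lowest, with the filter level as a dashed line. For most S-phase genes the order from the right is kidney lines, EpH4, NMuMG, and for many p53 targets mProx lies furthest to the left.

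Cdh1, the E-cadherin gene of adherens junctions, had the largest gap of all genes higher in the mammary lines. It was 189-fold higher there on the mean difference of -7.56 (kidney minus mammary, SE 0.58, limma adjusted p = 0.315), and the kidney lines were dim. Over the 15 genes with the largest gaps on the mammary side, gaps ran from 3.17 to 6.81 and mean differences from 13.9-fold to 189-fold, with limma adjusted p from 0.315 to 0.423. In 9 of the 15 both kidney lines were dim. The next gene in the order was Msx2, a homeobox factor of the mammary bud, with a gap of 3.16 against 3.17 for Fgf13. All probe sets of the 7 genes that had others shared the direction.

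Genes of secretion and of cell contact were among these 15. Ano1, a calcium-activated chloride channel of gland cells, was at 9.21 in EpH4 and 10.55 in NMuMG against 3.79 in mProx and 4.35 in MCT. Aqp5, the water channel of secretory glands, was at 10.30 and 9.07 against 4.42 and 4.21, and Pkp1, a desmosomal plaque protein, at 10.87 and 9.08 against 4.63 and 4.56. These 3 genes were dim in both kidney lines, so their differences of 56.3-fold, 41.3-fold and 41.8-fold are not exact. Map2, a microtubule-binding protein gene better known from neurons, was at 8.31 and 9.69 in EpH4 and NMuMG against 3.61 and 3.66. Fgf13, an intracellular member of the FGF family, was at 9.37 and 7.06 against 3.50 and 3.90, and Prex2, an activator of the GTPase Rac, at 8.41 and 10.83 against 4.17 and 3.73.

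Other genes of this group act in growth signalling, the matrix and metabolism. Vgll3, a cofactor of TEAD factors, was at 11.44 and 11.23 in EpH4 and NMuMG against 7.51 and 6.96, above the filter level in every line, with a 17.1-fold mean difference and an SE of 0.40. Igfbp3, which binds insulin-like growth factors, was at 8.47 and 10.14 against 4.81 and 3.79, and Ccbe1, a secreted activator of VEGF-C, at 8.96 and 10.74 against 5.10 and 5.40. These secreted factors were near or under the filter level in the kidney lines. Cavin2, a coat protein of caveolae, was at 11.79 and 12.37 against 7.88 and 5.73, Fbln2, a matrix glycoprotein gene, at 11.50 and 12.49 against 8.22 and 7.24, and Cxcl16, a chemokine gene, at 10.57 and 9.72 against 6.27 and 6.42. Mgst1, a membrane glutathione transferase gene, was at 11.44 and 12.14 against 4.73 in mProx and 8.24 in MCT, which gave it the largest SE of the 15, 1.19. Phyh, the enzyme that starts the breakdown of phytanic acid in peroxisomes, was at 10.60 and 8.80 against 5.03 and 4.52.

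Promoter windows were found for 7 of the 15 kidney-side genes and 10 of the 15 mammary-side genes, and Cdh16 and Cdh1 were not among them. The E-box CACCTG or CAGGTG, read by SNAI and ZEB repressors, was in the windows of Ano1 and Igfbp3 on the mammary side and of Pax8 on the kidney side, 14.3% and 11.1% of the windows against 20.2% of all promoters. The TFAP2 motif GCCNNNGGC was in 5 of the 14 mammary-side windows (35.7%) and 4 of the 9 kidney-side windows (44.4%), against 16.6% of all. The genes were Ano1, Aqp5, Fgf13 and Phyh on the mammary side and Kcnk5, Rasl11a and Ttc7b on the kidney side. Some of these windows are alternative starts of the same gene, and so few genes cannot show an excess. The TFAP2 motif was also in 27.3% of the windows of the tested S-phase genes and 27.3% of those of the tested HOX genes. The AP-1 motif TGANTCA was in the window of Fgf13 alone, against 7.81% of all promoters. Both strands were searched. Motifs for HNF4 and GRHL factors were in none of the kidney-side or mammary-side windows, against 0.475% and 0.146% of all promoters. So few windows cannot show an absence at those shares.

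Epithelial junction genes were higher in the mammary lines by the median, but mostly through EpH4. Of 39 tested members 7 were higher in both mammary lines and 2 in both kidney lines, which is near the background of 16.1% and below that of 20.8%. A gap of at least 2-fold was found in 3 higher in mammary and 0 higher in kidney lines, against 1.44% and 3.05% of all genes. The median difference was -0.97. EpH4 was at least 2-fold above each of the other 3 lines in 17 of the 39, and without EpH4 the median was 0.04. It was -0.25 without mProx, -1.48 without NMuMG and -0.19 with the filter at the 70th percentile. Cldn3 and Cldn7, claudins of tight junctions, were at 11.92 and 11.59 in EpH4, whereas the other 3 lines lay between 4.15 and 4.39 for Cldn3 and between 4.46 and 5.09 for Cldn7. Epcam, an adhesion molecule of most epithelia, was at 12.35 in EpH4 and dim in NMuMG at 3.90, with 6.67 in MCT. Esrp1, the epithelial splicing regulator, was at 12.02 in EpH4, 6.55 in MCT and dim in mProx and NMuMG at 4.43 and 4.51.

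A few junction genes separated the tissues after all. Besides Cdh1 and Pkp1, Cldn4 was at 12.03 in EpH4 and 7.95 in NMuMG against 5.31 in mProx and 6.09 in MCT. F11r, the junctional adhesion molecule gene, was at 11.31 and 11.66 against 10.39 and 10.30, and Ctnnd1, the p120 catenin that holds cadherins at the membrane, at 9.94 and 11.40 against 9.45 and 9.07. Tjp3, a tight junction scaffold gene, was 1 of the 2 members higher in both kidney lines, at 7.45 and 6.61 against 6.25 and 5.82. Dsp, the desmoplakin gene, was high in 3 lines and dim in mProx, at 4.07 against 10.27 in MCT, 10.96 in EpH4 and 8.78 in NMuMG. Cldn2, a claudin of leaky epithelia such as the proximal tubule, was highest in NMuMG at 11.13, against 7.05 in mProx, 5.48 in MCT and 5.58 in EpH4.

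Mesenchymal genes divided the lines in 2 different ways. A first group was high in both kidney lines and in NMuMG and low in EpH4. Cdh2, the N-cadherin gene, was at 11.77 in mProx, 10.86 in MCT and 12.43 in NMuMG against 5.38 in EpH4, and Zeb1, a repressor of Cdh1, at 10.47, 9.75 and 10.97 against 6.99. In a second group the tissues were apart. Fn1, the fibronectin gene, was at 12.79 in EpH4 and 13.26 in NMuMG against 11.60 and 10.98 in mProx and MCT. Prrx1, a homeobox factor of mesenchyme, was at 6.80 and 7.99 against 4.96 and 5.57.

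The TWIST genes were exchanged between the tissues. Twist1 was at 7.03 in EpH4 and 7.35 in NMuMG and dim in mProx and MCT, at 4.63 and 3.67. Twist2, its close relative, was at 10.23 in both mProx and MCT against 5.52 in EpH4 and 7.0 in NMuMG. Both encode helix-loop-helix factors that can drive EMT, and each was the member with the largest gap in its direction among the 28 tested mesenchymal markers. Of these, 8 were higher in both mammary lines and 2 in both kidney lines, against 16.1% and 20.8% of all genes. The median difference was -0.59. The median was -0.99 without EpH4, 0.08 without NMuMG and 0.63 with the filter at the 70th percentile, so the list has no settled direction.

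**Figure D4:**
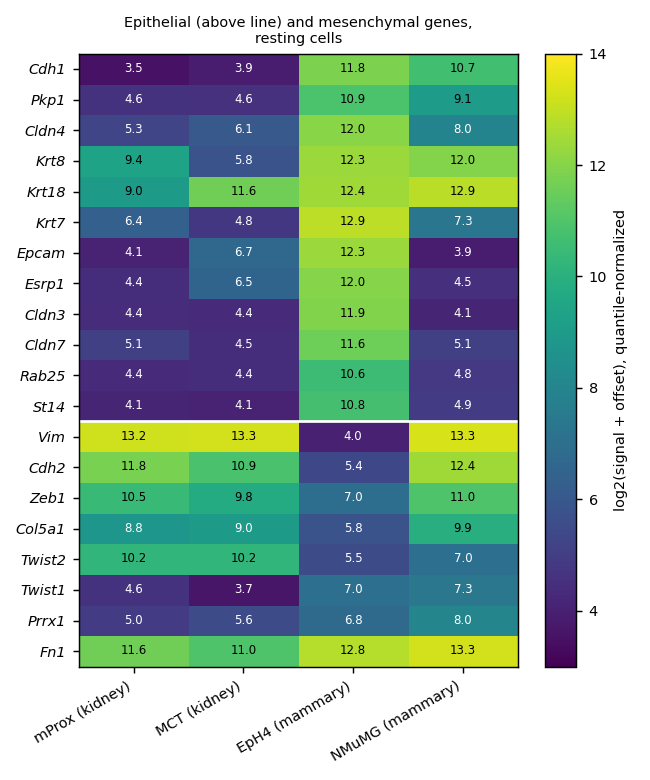
Heat map of log2 levels (colour scale and printed values) of 12 epithelial genes above the white line and 8 mesenchymal genes below it, with 1 column per resting line. The genes from Epcam to St14 are high in EpH4 alone, Vim to Col5a1 are high in the other 3 lines, and Twist2 and Twist1 take opposite tissues.

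Luminal and basal genes of the mammary gland were shared unevenly between the mammary lines. Of 30 luminal genes tested 10 were higher in both mammary lines and 4 in both kidney lines, against 16.1% and 20.8% of all genes. The median difference was -0.48, which was -0.85 without NMuMG and -1.28 with the filter at the 70th percentile. Krt8, a luminal keratin gene, was at 12.33 in EpH4 and 11.96 in NMuMG against 9.39 in mProx and 5.82 in MCT. Its partner Krt18 was at 12.41 and 12.86 against 9.01 and 11.60. The pair thus kept an order in which the mammary lines were on top, while the lower kidney line was MCT for Krt8 and mProx for Krt18. Krt7 was at 12.91 in EpH4 and 7.32 in NMuMG against 6.37 and 4.79. Foxa1, a pioneer factor of hormone-sensing luminal cells, was high in NMuMG alone, at 10.12, and Krt19 was at 9.11 in NMuMG and 8.72 in MCT but dim in EpH4 at 4.52. Prom1, a luminal surface marker, was high in mProx alone, at 10.97.

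Milk genes did not mark the mammary lines. Csn2 and Lalba were not tested because their means were under the filter. Lalba was dim in all 4 lines, Csn2 lay between 4.52 and 5.45, and Wap, the whey acidic protein gene, lay between 5.00 and 5.94 in the 4 lines. Csn3, encoding kappa-casein, was at 9.43 in MCT, a kidney line, and dim in mProx, EpH4 and NMuMG at 5.23, 4.08 and 5.10. On the stimulated arrays it was at 8.89 in mProx and 10.63 in MCT against 5.44 and 5.46. Xdh, an enzyme that also lines milk fat droplets, was higher in both mammary lines, at 10.88 and 9.75 against 4.73 in mProx and 8.19 in MCT. Of 14 tested genes of this list 5 were higher in both kidney and 4 in both mammary lines, against 20.8% and 16.1% of all genes.

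Basal genes were split as well, with 4 of 20 higher in both mammary lines and 3 in both kidney lines. These counts were near the shares of all genes, 16.1% and 20.8%. Krt14, the basal keratin gene, was at 10.22 in EpH4 and dim in the other 3 lines, between 3.64 and 5.04. Lamb3, a chain of the basement membrane laminin of stratified epithelia, was also highest in EpH4, with 10.20 against 4.71 in mProx, 6.57 in MCT and 5.56 in NMuMG. Acta2, the smooth muscle actin gene of myoepithelium, was at 8.52 in EpH4 and 10.27 in NMuMG against 7.55 and 7.59. Trp63, the master factor of basal cells, was not tested because its mean was under the filter, and it was at 5.82 in NMuMG and dim in the other 3 lines.

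Growth factors and their receptors were tested as 1 list, which was divided between the tissues. Of 45 tested genes of growth factors and receptors 12 were higher in both mammary and 9 in both kidney lines, against 16.1% and 20.8% of all genes. A gap of at least 2-fold was found in 7 and 2, against 1.44% and 3.05% of all genes. The median difference was 0.09, and it was -0.63 without EpH4, -0.14 without mProx, 0.18 without MCT and -0.12 with the filter at the 70th percentile. Ereg, the EGF-family ligand epiregulin, was at 9.18 in EpH4 and 8.20 in NMuMG and dim in mProx and MCT, at 5.20 and 4.17. Inhbb, an activin chain gene, was at 11.68 and 9.62 against 6.98 and 5.17, and the other activin chain gene, Inhba, at 9.87 and 9.66 against 6.43 and 7.53. The 7 genes with such a gap on the mammary side encode ligands, as seen after their values were known, and the others are Vegfc, Pdgfc, Nrg1 and Tgfb2. Tgfb2, a TGF-β isoform, was at 8.29 and 8.09 against 6.0 and 6.88.

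On the kidney side the 2 genes were a coreceptor and a ligand. Tgfbr3, which encodes betaglycan and presents TGF-β2 to its receptors, was at 10.72 in mProx and 10.40 in MCT against 7.39 in EpH4 and 6.62 in NMuMG. Its mean difference was 3.55 (limma adjusted p = 0.315). Bmp6, a bone morphogenetic protein gene, was at 10.27 and 7.15 against 4.63 and 4.34. Tgfb1, the ligand added in the stimulated cultures, did not follow the tissues, with 9.51 and 10.11 in mProx and MCT, 9.96 in NMuMG and 7.59 in EpH4.

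Genes of antigen presentation and of the interferon response were higher in both kidney lines in 11 of 28 and in both mammary lines in 1. The shares of all genes were 20.8% and 16.1%. The median difference was 0.46. Irf7, an interferon regulatory factor, was at 8.09 and 8.18 in mProx and MCT against 6.29 and 6.74. Oasl2, an interferon-induced antiviral gene, was at 7.56 and 6.92 against 5.36 and 5.15. These 2 had the only gaps of at least 2-fold in the list. Gbp2, a guanylate-binding protein gene, was the 1 member higher in both mammary lines, at 8.63 and 7.47 against 5.98 and 6.74. H2-K1, a class I antigen gene, was low in NMuMG alone, at 8.94 against 11.84 to 12.14. Ifit3, another interferon-induced gene, was at 11.38 in mProx and between 5.30 and 6.96 in the others.

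Detoxifying enzymes were higher in both mammary lines in 8 of 24 tested and in both kidney lines in 3, against 16.1% and 20.8% of all genes. The list mixes conjugating enzymes with cytochromes and carbonyl reductases, and the members named below are of the last 2 kinds. The median difference was -0.88. mProx was at least 2-fold under each other line in 7 of the 24, and the median was -0.18 without mProx, -1.60 without MCT and -0.43 with no filter. Cyp1b1, a cytochrome that oxidises steroids and hydrocarbons, was at 11.46 in EpH4 and 12.54 in NMuMG against 8.95 and 9.31. Cyp2j6, of a family acting on fatty acids, was at 6.77 and 7.69 against 4.38 and 4.36. The reverse held for Cbr3, a carbonyl reductase gene, at 7.87 and 9.61 in mProx and MCT against 3.71 in EpH4 and 6.04 in NMuMG. Cbr1, its neighbour, was dim in mProx alone, at 3.77, against 9.32, 8.18 and 8.23.

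Collagens and basement membrane genes followed the line more than the tissue. Of 33 tested 6 were higher in both kidney and 8 in both mammary lines, against 20.8% and 16.1% of all genes. The median was 0.39, which was -0.28 without mProx, 0.05 without EpH4 and 0.59 without NMuMG. Col4a1 and Col4a2, the chains of common basement membrane collagen that are read from a shared promoter region, were at 11.53 and 10.80 in mProx and at 11.79 and 10.19 in NMuMG. In MCT they were at 5.34 and 5.48, and in EpH4 at 5.63 and 4.96, so 1 line of each tissue had both. Col4a5, a chain of the mature kidney filter membrane, was dim in NMuMG alone, at 3.96, against 12.24, 11.33 and 10.99. Fras1, a matrix protein needed for kidney budding, was at 8.50 and 6.57 in the kidney lines and dim in EpH4 and NMuMG, at 4.41 and 4.68. Col8a1 was at 9.21 and 10.05 in EpH4 and NMuMG against 5.67 and 7.16.

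Among 15 tested integrin genes 2 were higher in both kidney and 3 in both mammary lines. Itgb7, a partner of the alpha 4 and alpha E chains, was at 6.16 and 7.95 in mProx and MCT and dim in EpH4 and NMuMG, at 4.80 and 4.38. Itgb4, the integrin of hemidesmosomes, was dim in mProx at 3.82, with 7.35 in MCT, 8.95 in EpH4 and 6.55 in NMuMG. The 5 integrin genes without overlap compare with 37% of all genes.

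**Figure D5:**
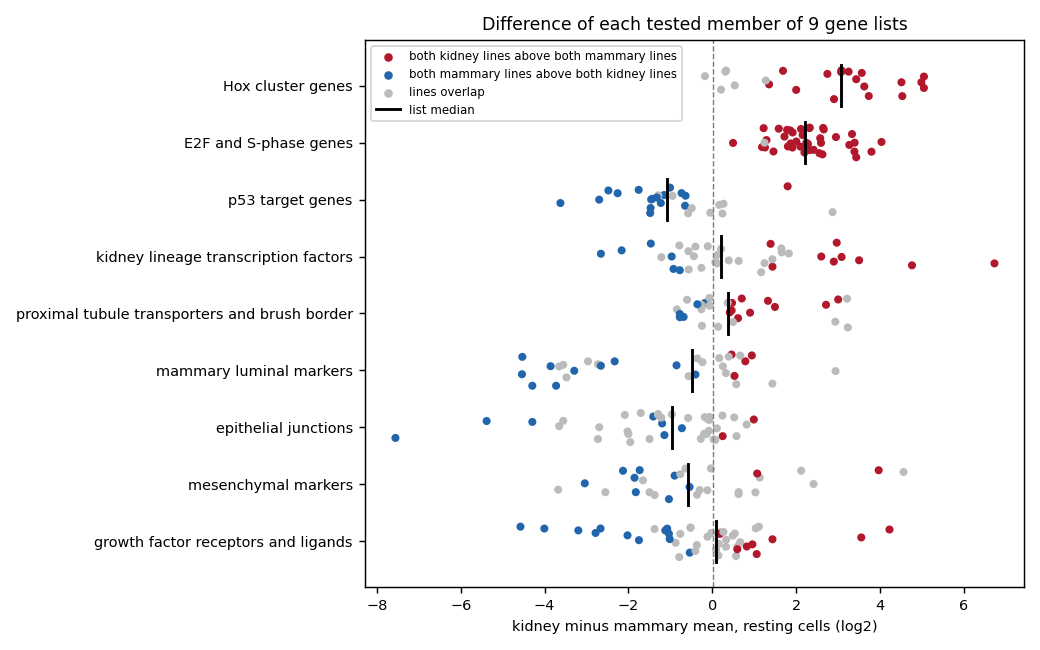
Kidney minus mammary difference (log2, horizontal axis) of every tested member of 9 gene lists, coloured by whether the resting lines overlap, with the list median as a bar and the median of all genes, 0.03, as a dashed line. Members of the S-phase list lie to the right throughout, with a median of 2.22, and p53 targets lie mostly to the left, with a median of -1.08.

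Markers of cells other than epithelium were looked at because a culture can hold them. The leukocyte marker Ptprc and the endothelial marker Pecam1 were dim in all 4 lines. Single genes of these types were nevertheless high in mProx. Csf1r, the receptor of macrophage growth factor, was at 10.91 in mProx against 7.22 to 7.58 in the others, while Cd68 was at 6.40 there, inside the range of the other lines. Dcn, the matrix proteoglycan decorin of fibroblasts, was at 10.56 in mProx and dim in MCT, EpH4 and NMuMG, between 4.03 and 4.72. Of the 4 fibroblast markers mProx and EpH4 each had 3 above the filter level, and the summed level was 27.5 in mProx against 18.5 in MCT, 22.5 in EpH4 and 20.9 in NMuMG. The sum in mProx rests on Dcn, since Col1a1 was dim there, at 4.68 against 6.78 in EpH4, and Pdgfra was at 5.32 against 5.89. The part of Dcn and Csf1r in the differences above was not tested. MCT did not share the high level of either gene.

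Genes bound to sex also differed. Xist, the RNA that silences an X chromosome in female cells, was at 11.76 in EpH4, 11.37 in NMuMG, 9.32 in MCT and 6.16 in mProx. Eif2s3y, a Y-linked gene, was at 7.06 in mProx and dim in the other 3 lines, at 4.64, 3.48 and 3.50. The kidney lines thus differed from each other on both genes, and the labels used here do not give the sex of any line. Differences of tissue and of sex chromosomes cannot be told apart for such genes.

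Imprinted and fetal genes gave 4 of 13 higher in both kidney lines and 4 in both mammary lines, against 20.8% and 16.1% of all genes. Cdkn1c, the maternally expressed cell cycle inhibitor p57, was at 6.33 and 6.55 in mProx and MCT and dim in EpH4 and NMuMG, at 3.72 and 4.80. Mest, a paternally expressed gene, was at 10.03 in MCT and 7.17 in mProx against 6.21 and 6.13. Grb10, an adaptor that restrains insulin signalling, was low in EpH4 alone, at 5.51 against 9.40 to 11.45.

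The stimulated arrays of the same lines gave a second reading on arrays that had not entered the gap by which the genes were ranked. They did enter the filter and the choice of probe sets, and they repeat the array and not the line. All 15 kidney-side genes again had both kidney lines above both mammary lines, 14 of them by at least 2-fold. On the mammary side 14 of 15 did so in their direction, 13 by at least 2-fold. Cdh16 was 5.81 higher in kidney lines, Hoxb13 4.45 and Cdc6 4.34, and Cdh1 had a kidney minus mammary difference of -6.82. Aqp5 narrowed to a gap of 0.98 and a mean difference of -3.57. Rasl11a narrowed most on the kidney side, from a difference of 4.18 to one of 1.95, and Ccbe1 overlapped after stimulation. The change of the difference with stimulation passed limma's test in none of the 30 genes (adjusted p from 0.885 to 0.986), with 6 at an unadjusted p under 0.05. The 30 genes were chosen by their gap at rest, a choice that favours smaller differences on any other arrays. A narrowing here therefore cannot be assigned to stimulation. Over all 12640 genes of the stimulated arrays limma passed 0, at a smallest adjusted p of 0.313, and 842 had an unadjusted p under 0.05.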

How the data were processed

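RNA of 4 mouse lines was measured on Affymetrix whole-genome mouse arrays. The deposited values are linear intensities for 45101 probe sets, made with MAS5 per the submitters' processing notes. The scaling used with MAS5 was not given in the sources used here. An offset of 10.6 (25th percentile of positive signals) was added, log2 taken and the 8 arrays quantile-normalized, since their medians differed by 0.43, which removes any overall difference in signal. Symbols came from the platform's annotation (34945 probe sets with 1 symbol, 932 with several, 9160 with none), and 34741 matched RefSeq genes of GRCm38.p6. Each of 18193 genes kept its probe set with the highest mean among those not marked as cross-hybridising. Marked ones were used only where a gene had no other. The 12640 genes at or over the 40th percentile (5.27) entered limma 3.58.1 under R 4.3.3 (intensity trend), 2 lines against 2, with Benjamini-Hochberg adjustment at 0.05. The fit was tested on simulated data.

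Members and gene lists were chosen with earlier results of these data known. Named genes are the 15 with the largest gap each way, a marker panel, and for each list up to 5 members by gap and 3 that mark single lines; further members named, such as the MCM genes, were chosen after their values were seen. Alternatives were other normalizations, offsets, filters, probe sets and models, and leaving out each line.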

Additional observations from a re-analysis of the deposited data

How the results depend on the processing

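No paired analysis was possible because each line belongs to 1 tissue, so kidney and mammary arrays share no pair. The count past limma's threshold, 0 each way, became 3 higher in kidney (Cdh16, Kcnk5, Hoxb13) and 3 higher in mammary lines (Cdh1, Ano1, Map2) on the values as deposited, at adjusted p = 0.0490 at the lowest. With all 8 arrays and line as a random block it became 4 and 2, among them Cdh16, Hoxb13, Hoxa10, Cdh1 and Vgll3 (smallest limma adjusted p 0.0339). Under the other settings, leave-outs included, it was 0. On the values as deposited 61.2% of genes were higher in kidney against 52.0%, and the median of all genes was 0.15 against 0.03. Genes with a gap of at least 2-fold numbered 186 higher in kidney and 86 higher in mammary lines at the 70th percentile filter, 653 and 339 with all probe sets singly, and 118 higher in mammary lines with an offset of 50. Leaving out 1 line, which leaves a single line to stand for its tissue and a weaker criterion, gave 700 to 1222 and 443 to 799. On stimulated arrays the gap count was 322 higher in kidney (584 to 1050 with 1 line left out) and 139 higher in mammary lines (389 to 726, and 91 with an offset of 50), and 1 gene passed in kidney without NMuMG (0 to 1 over the leave-outs).

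Refits of the lists were chosen after seeing the data, as was the E2F motif. The list medians that changed sign were epithelial junctions (-1.48 to 0.042 over the leave-outs, the latter without EpH4), mesenchymal markers (-0.99 to 0.081, the latter without NMuMG, and 0.63 at the 70th percentile), kidney lineage factors (-0.35 at the 70th percentile), growth factors (-0.63 without EpH4, the lowest, to 0.18 without MCT, with -0.14 without mProx, and -0.12 at the 70th percentile) and collagens (-0.28 without mProx to 0.59 without NMuMG); the cause was not tested. With 1 line left out, 17 to 20 HOX genes and 39 to 40 S-phase genes lay higher in kidney, and 16 to 20 p53 targets higher in mammary lines. These counts could not fall below those with all 4 lines, because leaving out a line only loosens the criterion. In the opposite direction lay 4 HOX genes without mProx, 2 without NMuMG, and 1 S-phase gene without EpH4. For p53 targets the opposite direction held 1 to 4 over the leave-outs. The 70th percentile filter left 3 HOX genes, 2 of them higher in both kidney lines. The 30 named genes kept their direction in all refits. They were chosen because their lines did not overlap, so leaving out a line could not reverse them. Several other refits reuse the same differences, so the kept direction is no support. Having 2 lines a tissue, and dim levels in the lower tissue, limits every size given.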
